A study of Mus musculus with 9 samples.

Results

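The 4 Hox clusters of the mouse, HoxA on chromosome 6, HoxB on chromosome 11, HoxC on chromosome 15 and HoxD on chromosome 2, were examined in 4 lists of chromatin interactions. A listed interaction belonged to a cluster when at least 1 of its bins overlapped chr6:52140001-52275000 (HoxA), chr11:96180001-96380000 (HoxB), chr15:102900001-103050000 (HoxC) or chr2:74650001-74780000 (HoxD) on mm10. This rule took 237 of 49630 CTCF interactions, 110 of 23630 RAD21 interactions, and 33 of 36274 H3K27ac interactions in untreated cells and 21 of 28210 after IAA. The windows hold 38 Hox genes that were followed as members, 10 in HoxA, 10 in HoxB, 9 in HoxC and 9 in HoxD.

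The data come from MNase HiChIP, in which crosslinked chromatin is cut with micrococcal nuclease, neighbouring ends are ligated inside the nucleus, and an antibody pulls down the products. All 9 libraries are from E14 mouse embryonic stem cells with the genotype CTCF AID, a degron tag on CTCF that lets the auxin IAA trigger its degradation. Both arms therefore carry the tag. CTCF (2 libraries), RAD21 (3 libraries) and H3K27ac (2 libraries) were measured without IAA, and H3K27ac was also measured after 12 h of IAA (2 libraries). The cells grew in serum-free medium with LIF, PD0325901 and CHIR99021. The level of the CTCF protein was not analysed here, nor were CTCF and RAD21 interactions after IAA. Each list is pooled over its libraries, so replicate error cannot be given, and intervals cover counting error only.

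Hox genes encode homeodomain transcription factors that set positional identity along the body axis, and they lie in paralogous clusters in which all member genes are transcribed in the same direction. The high-numbered paralogues (up to 13) stand at the 5′ end of each cluster and act toward the tail, while the low-numbered ones stand at the 3′ end. CTCF binds DNA at a motif with a direction, and cohesin, of which RAD21 is a subunit, holds distant CTCF sites together, most often where their motifs point toward each other. H3K27ac marks active promoters and enhancers; in embryonic stem cells the Hox clusters are known as largely silent regions bound by Polycomb proteins. Below, 3′ partners are those beyond the low-numbered end of a cluster and 5′ partners those beyond the high-numbered end. HoxA lies on the minus strand, so that its 3′ side has the lower coordinates, and HoxB, HoxC and HoxD lie on the plus strand.

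The CTCF core motif was searched in the 1 kb anchor bins on both strands, with up to 1 mismatch over 14 bases. The sequences that follow are the best matches in a choice of cluster anchors with many partners or contacts and in some of the outside bins joined to them, read 5′ to 3′ on the strand of the match from the RefSeq sequence of GRCm38. Capitals mark the core match and lower case the 5 bases on each side. They are shown because the strand of these matches is compared with the side of the partners below.
5′ end of the Hoxa7 gene record (chr6:52221802-52221825, minus strand): aaattCCAGGAGATGGCAGtgtgg
Hoxa5 start (chr6:52204652-52204675, minus strand): agtctCCAGCGGGTGGCGCtcgag
Jazf1 intron, 5′ partner of Hoxa13 (chr6:52838925-52838948, minus strand): tgcggCCTGCAGAGGGCGCtagaa
between Hoxb13 and Hoxb9 (chr11:96235099-96235122, minus strand): cgcggCCGGCAGGGGTCACtgtgt
near Calcoco2, its 5′ partner (chr11:96093521-96093544, plus strand): agcaaCCTCTAGAGGGCAGcctca
between Hoxb9 and Hoxb8 (chr11:96278943-96278966, plus strand): agtggCCGCTAGATGGCATccttg
Hoxb5 start (chr11:96303240-96303263, plus strand): aatcgCCGGGAGGTGGCGCgctct
Hoxc10 start (chr15:102966567-102966590, plus strand): ggcagCTGCTAGGTGGCGCtgtta
between Smug1 and Cbx5, its 3′ partner (chr15:103177228-103177251, minus strand): cttgaCCAGCAGGGGGAAGcagat
between Hoxd9 and Hoxd8 (chr2:74702390-74702413, plus strand): tttggCCACTAGAGAGCGCtgttg
2600014E21Rik intron, its 3′ partner (chr2:75151166-75151189, minus strand): cttcaCCACCAGGTGGCGCccttt
Of these, the last one matched the core with 0 mismatches and the others with 1. A match describes the letters in the bin and was not tested as a binding site.

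CTCF interactions of the Hox clusters mostly left the cluster, and in HoxA, HoxC and HoxD they mostly left it on the 3′ side. Of the 237 interactions, 16 joined 2 bins of the same window, 171 reached a 3′ partner and 50 a 5′ partner. The windows are 130 to 200 kb long, and the median span of the whole CTCF list was 149 kb. The share of interactions that leave other windows of this size was not calculated. The 3′ share of the interactions that left the window was 77.4% (95% Wilson interval 71.4 to 82.4%). HoxA sent 46 of 51 such interactions to the 3′ side (90.2%, 79.0 to 95.7%). HoxC sent 57 of 66 there (86.4%, 76.1 to 92.7%), and HoxD 29 of 34 (85.3%, 69.9 to 93.6%). HoxB stood apart with 39 of 70 (55.7%, 44.1 to 66.8%), an interval that does not overlap those of the other clusters. With only partners 100 kb or more outside the window counted, a choice made after the data were seen, the HoxB share was 84.1%. Counted by contacts, the 3′ share of HoxB was 39.4%, since its 5′ interactions were fewer and stronger (772 contacts against 502). Interactions of a cluster share anchors and are not independent, so these intervals are narrower than the true uncertainty.

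**Figure D1:**
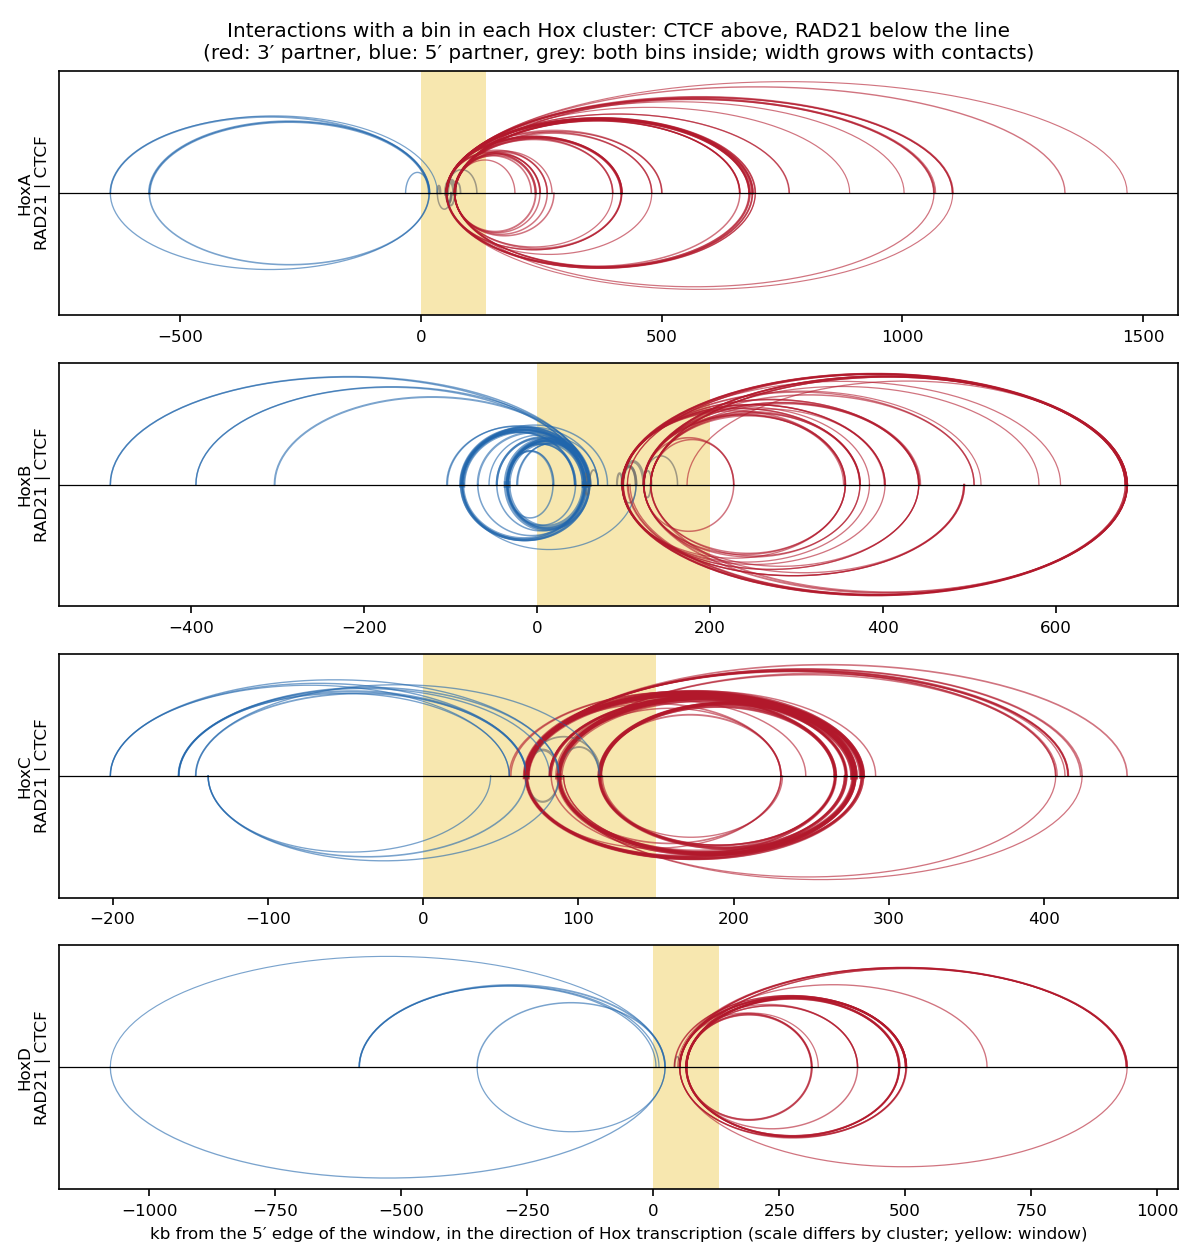
Each arc joins the 2 bins of a listed interaction, CTCF above the line and RAD21 below it, against the distance in kb from the 5′ edge of the window along Hox transcription (yellow marks the window, line width grows with contacts). HoxA, HoxC and HoxD send most arcs to the right, the 3′ side, and HoxB sends 39 CTCF arcs to the right and 31 to the left.

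RAD21 interactions were placed likewise. Of 110, 83 reached a 3′ partner, 19 a 5′ partner and 8 stayed inside. The 3′ share was 90.0% in HoxA, 66.7% in HoxB, 90.6% in HoxC and 85.7% in HoxD. The RAD21 interval of HoxB, 50.3 to 79.8%, overlaps those of the other clusters. At the same bin pair, 85 of the 237 CTCF interactions were also in the RAD21 list (35.9%, 30.03 to 42.2%), against 34.4% over the whole CTCF list. In the other direction, 85 of 110 RAD21 interactions were in the CTCF list (77.3%, 68.6 to 84.1%), against 72.2% over the whole RAD21 list. Neither share stands clear of its background. By cluster the RAD21 share was 83.3% in HoxA, 71.8% in HoxB, 69.7% in HoxC and 100% in HoxD, where all 14 listed RAD21 pairs were also CTCF pairs. The models behind the lists held 2839756 CTCF contacts and 1517698 RAD21 contacts.

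The reach of the interactions differed between the clusters. The median span of CTCF interactions was 582 kb in HoxA, 436 kb in HoxD, 237.5 kb in HoxB and 206 kb in HoxC, against 149 kb over the whole list. Spans of 500 kb or more made up 8.46% of the whole CTCF list. In HoxA they were 29 of 55 (52.7%), in HoxD 11 of 35 (31.4%) and in HoxB 17 of 78 (21.8%), while HoxC had 0 of 69. The longest spans were 1413 kb in HoxA, 1101 kb in HoxD, 584 kb in HoxB and 387 kb in HoxC. In the RAD21 list the medians were 395, 429, 250 and 188 kb for HoxA, HoxD, HoxB and HoxC, against 123 kb over that whole list. HoxA and HoxD thus again had the longer medians, now with HoxD first. By the share of spans of 500 kb or more the RAD21 order differed, with HoxA at 45.8%, HoxB at 23.1% (9 of 39), HoxD at 14.3% (2 of 14) and HoxC at 0 of 33. Such spans made up 5.12% of the whole RAD21 list.

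**Figure D2:**
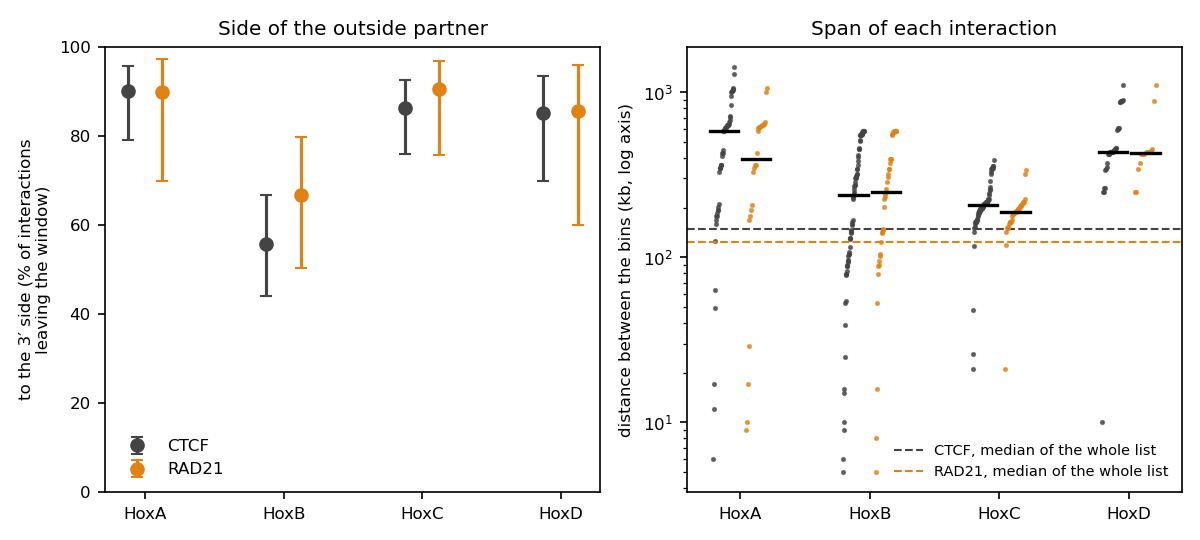
Left, the share of interactions leaving each window that reached a 3′ partner, in percent with 95% Wilson intervals, for CTCF (grey) and RAD21 (orange). Right, the span of each interaction in kb on a log axis, with the cluster median as a black bar and the whole-list median as a dashed line; HoxA has a CTCF median of 582 kb and HoxC one of 206 kb.

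CTCF anchors were dense inside the clusters. The 4 windows held 49 anchor bins of 1 kb, 7.97 per 100 kb, against 1.29 per 100 kb over the whole genome. HoxB had 20 anchors (10 per 100 kb), HoxA 10 (7.41), HoxD 9 (6.92) and HoxC 10 (6.67). The flanks, 250 kb on each side, differed far more than the clusters themselves. HoxD stood between nearly empty flanks, with 2 anchors on its 3′ side and 0 on its 5′ side. HoxA had 7 and 3. HoxB had 10 on its 3′ side and 24 on its 5′ side, and HoxC had 20 and 14. Per 100 kb, the 5′ flank of HoxB held 9.6 anchors, near the density inside HoxB. The 3′ flank of HoxC held 8, above the density inside HoxC, and the other flanks held 0 to 5.6. Neighbouring bins can belong to 1 peak: with touching bins merged, HoxC had 5 anchors, HoxA 7, HoxB 14 and HoxD 7. With at least 10 contacts required, HoxD kept 5 of its 9 anchors.

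RAD21 had 31 anchor bins in the windows, 6 in HoxA, 13 in HoxB, 8 in HoxC and 4 in HoxD, and 24 of them were also CTCF anchors. The other 7 were at 2 neighbouring bins of the Hoxa6 to Hoxa7 interval in HoxA, in exons of Hoxb8 and Hoxb7, upstream of Hoxc11, at the start of Hoxc8 and in an exon of Hoxc5. The matching share over all RAD21 anchor bins was not calculated, so whether this overlap is usual for the list was not tested. At several CTCF anchors with many partners, among them the bin at the 5′ end of the Hoxa7 gene record, the Hoxb5 start and the Hoxc10 start, RAD21 was listed too.

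CTCF anchors overlapped some members and not others, in shares near those of all protein-coding genes. A CTCF anchor overlapped 19 of the 38 gene records, and 44.2% of those of all 21671 protein-coding genes. The start of a transcript of the basic annotation set lay in an anchor bin for 6 genes: Hoxa5, Hoxa10, Hoxb5, Hoxc5, Hoxc10 and Hoxd10. Over all protein-coding genes 23.2% had a start in such a bin. The record of Hoxa7 ends, at its 5′ side, in the anchor bin chr6:52221001-52222000, called the Hoxa7 5′ anchor here, although no basic-set transcript of Hoxa7 reaches that bin. With such ends counted as starts the members numbered 7, against 23.8% of all protein-coding genes. RAD21 anchors overlapped 15 of the 38 genes, and 33.2% of all protein-coding genes. Gene length was not taken into account in these shares. The overlap counts use whole gene records, and those of Hoxa3, Hoxc5, Hoxd3 and Hoxd4 reach far upstream, so that the Hoxc5 record alone spans 6 CTCF anchors. With only basic-set transcripts counted, 17 members overlapped a CTCF anchor, against 43.4% of all protein-coding genes, and Hoxa7 and Hoxd4 dropped out. At the ends of the clusters some members were far from an anchor. Hoxd1, at the 3′ end of HoxD, lay 46.0 kb from the nearest CTCF anchor inside its window, Hoxc13 lay 26.2 kb away, Hoxc12 16.4 kb and Hoxb1 11.8 kb. All other members lay within 5.27 kb of one, and the farthest of these was Hoxb4. Among them, Hoxa2, Hoxa4 and Hoxa11 had no anchor in the gene and lay 3.42, 0.248 and 1.11 kb from one. Hoxb2 and Hoxb3 each held 1 anchor with 1 partner, and Hoxc9 held 2 with 8 partners in all.

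In HoxA 2 anchors carried nearly all 3′ interactions. The Hoxa7 5′ anchor (chr6:52221001-52222000), at the 5′ end of the gene record, had 26 partners, rank 38 among 34038 CTCF anchor bins, and 24 of them were on the 3′ side. The anchor over the Hoxa5 start (chr6:52204001-52205000) had 21 partners, rank 122, with 19 on the 3′ side. Neither had a 5′ partner. Both bins were also among the most covered, with 8921 and 8455 reads, more than 99.8% and 99.7% of CTCF anchor bins. The 2 anchors were also joined to each other, with 80 contacts against 32.5 expected by the authors' model, the highest contact count in HoxA but only 2.46 times the expectation at this distance of 17 kb. Of the HoxA anchors on the other side, at the Hoxa10 start (chr6:52240001-52241000), beside Hoxa13 and at the end of Hoxa13 (chr6:52257001-52258000), the 5′ partners numbered 1, 1 and 3, and none had a 3′ partner. The Hoxa13 anchor reached 2 bins in introns of Jazf1, which encodes a zinc finger protein, and the pair with chr6:52838001-52839000 had 36 contacts against 1.49 expected.

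The 3′ partners of HoxA were 29 bins spread over Skap2, which encodes an adaptor protein of Src kinase signalling, Snx10, which encodes a sorting nexin, and the region beyond. Skap2 was the nearest protein-coding gene of 12 of these bins with 335 of 707 contacts, Snx10 of 9 bins with 255 contacts, Nfe2l3 of 6 and Npvf of 2. The bin next to Snx10 at chr6:51592001-51593000 was contacted by 3 HoxA anchors with 77 contacts in all, and a bin in an exon of Skap2 (chr6:51858001-51859000) by 3 anchors with 74. The pair between the Hoxa7 5′ anchor and an Snx10 intron (chr6:51586001-51587000) had 39 contacts against 1.71 expected at a span of 635 kb. The same pair had 19 contacts in the RAD21 list. The pair between the Hoxa5 start and the Skap2 exon had 37 contacts against 3.26 expected, and 18 in the RAD21 list. Among pairs in the RAD21 list alone, the Hoxa7 5′ anchor and chr6:52211001-52212000 had 37 contacts against 8.61 expected, the most of any HoxA pair in that list. The Hoxa7 5′ anchor and the bin next to Snx10 followed with 33 contacts against 1.55 expected, and 35 in the CTCF list, and the pair of Hoxa5 with Hoxa7 had 23.

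HoxB was divided into a 5′-joined and a 3′-joined part. Every anchor from Hoxb13 to chr11:96261001-96262000 that left the window joined 5′ partners only, 9 anchors in all. Every anchor from chr11:96278001-96279000, between Hoxb9 and Hoxb8, onward that left the window joined 3′ partners only, 7 anchors in all. The change lies in the interval that holds Hoxb9, whose exon anchor (chr11:96272001-96273000) joined only a bin inside the window. In the RAD21 list the same division held with 1 exception: the Hoxb6 anchor (chr11:96294001-96295000) joined the 5′ bin chr11:96093001-96094000 with 9 contacts.

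The 5′ interactions of HoxB were short and strong. Their median span was 129 kb, against 344 kb on the 3′ side. The anchor chr11:96235001-96236000, between Hoxb13 and Hoxb9, had 118 CTCF contacts with an exon bin of Ttll6 (chr11:96145001-96146000), a gene for a tubulin-modifying enzyme, against 7.17 expected. This pair had 112 contacts in the RAD21 list, the highest RAD21 count of any Hox interaction. The same anchor had 104 contacts with chr11:96093001-96094000, near the autophagy receptor gene Calcoco2, and 65 in the RAD21 list. The anchor chr11:96240001-96241000 had 70 contacts with the latter bin, and 29 in the RAD21 list. Its pair with the Ttll6 exon had 30 contacts in the RAD21 list and 54 in the CTCF list. The bins at Ttll6 and near Calcoco2 were shared by 8 and 7 HoxB anchors, some of them touching bins, with 270 and 251 contacts. On the 3′ side, Skap1, a paralogue of the Skap2 gene beside HoxA, overlapped 11 of 17 partner bins with 274 of 502 contacts. The bin next to Copz2, a coatomer subunit gene, at chr11:96862001-96863000 was contacted by 7 anchors with 97 contacts. The anchors with the most partners were the Hoxb5 start with 14, and chr11:96278001-96279000 and chr11:96240001-96241000 with 13 each. The Hoxb5 start and chr11:96278001-96279000 were joined to each other with 44 contacts against 13.2 expected.

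The HoxC anchors shared a few partner bins on the 3′ side, as those of HoxB did on each side, and 5 of the 10 HoxC anchors had partners on both sides. At a q of 0.01 or less, an alternative added after the data were seen, 3 anchors had both, and in the RAD21 list 2 of 8. All 10 cluster anchors (5 with touching bins merged) contacted chr15:103177001-103178000, with 460 contacts in all. This bin lies between the DNA repair gene Smug1 and Cbx5, the gene for a heterochromatin protein. Of the 10 anchors, 8 also contacted chr15:103182001-103183000 with 298 contacts. The anchor near Hoxc8 (chr15:102987001-102988000) had 131 contacts with the first bin against 5.63 expected, the highest CTCF count of any Hox interaction, and 86 in the RAD21 list. The Hoxc10 start (chr15:102966001-102967000) had 121 contacts with it, and 63 in the RAD21 list, and it had 97 contacts with the second bin, and 30 in the RAD21 list. The anchor near Hoxc8 also had 52 RAD21 contacts with an intron of Smug1 (chr15:103165001-103166000), and 55 in the CTCF list. With 22 partners and 706 contacts the Hoxc10 start was the busiest HoxC anchor, rank 99 of 34038. Its coverage of 8106 reads was above that of 99.6% of CTCF anchor bins. The Hoxc10 start also reached 3 bins on the 5′ side with 55 contacts. The 5′ bins of HoxC lay near Calcoco1 and had 118 contacts in all, against 1662 on the 3′ side. The 3 HoxC anchors with the most partners were the Hoxc10 start, chr15:102987001-102988000 with 14 and chr15:103013001-103014000, in the Hoxc6 to Hoxc4 interval, with 9.

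HoxD anchors reached partners far outside the window. The 3 anchors at the 5′ end, in an exon of the homeobox gene Evx2, beside it, and between Hoxd13 and Hoxd12 (chr2:74673001-74674000), joined 5′ partners only. All 6 anchors from the Hoxd10 start (chr2:74691001-74692000) onward joined 3′ partners only. The nearest 3′ partner bin was 184 kb outside the window and the farthest 810 kb, and the nearest 5′ partner was 349 kb outside. The anchor in an intron of Hoxd3 (chr2:74715001-74716000) had 33 contacts with the start of the annotated transcript 2600014E21Rik (chr2:75138001-75139000), 423 kb away, against 2.10 expected, and 19 in the RAD21 list. The anchor between Hoxd9 and Hoxd8 (chr2:74702001-74703000) had 12 partners, the most in HoxD, while chr2:74716001-74717000 had 6, all on the 3′ side. The former had 28 contacts with chr2:75151001-75152000 against 1.66 expected, and 12 in the RAD21 list. The pair of the Hoxd3 intron anchor, chr2:74715001-74716000, with chr2:74964001-74965000 had 27 contacts, and 26 in the RAD21 list, the most of any HoxD pair there. The same anchor had 17 RAD21 contacts with chr2:75137001-75138000 and 17 with chr2:75152001-75153000. The nearest protein-coding gene of 8 of the 12 bins on the 3′ side was Mtx2, which encodes a mitochondrial outer membrane protein, with 322 of 395 contacts, although none of these bins overlapped it.

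**Figure D3:**
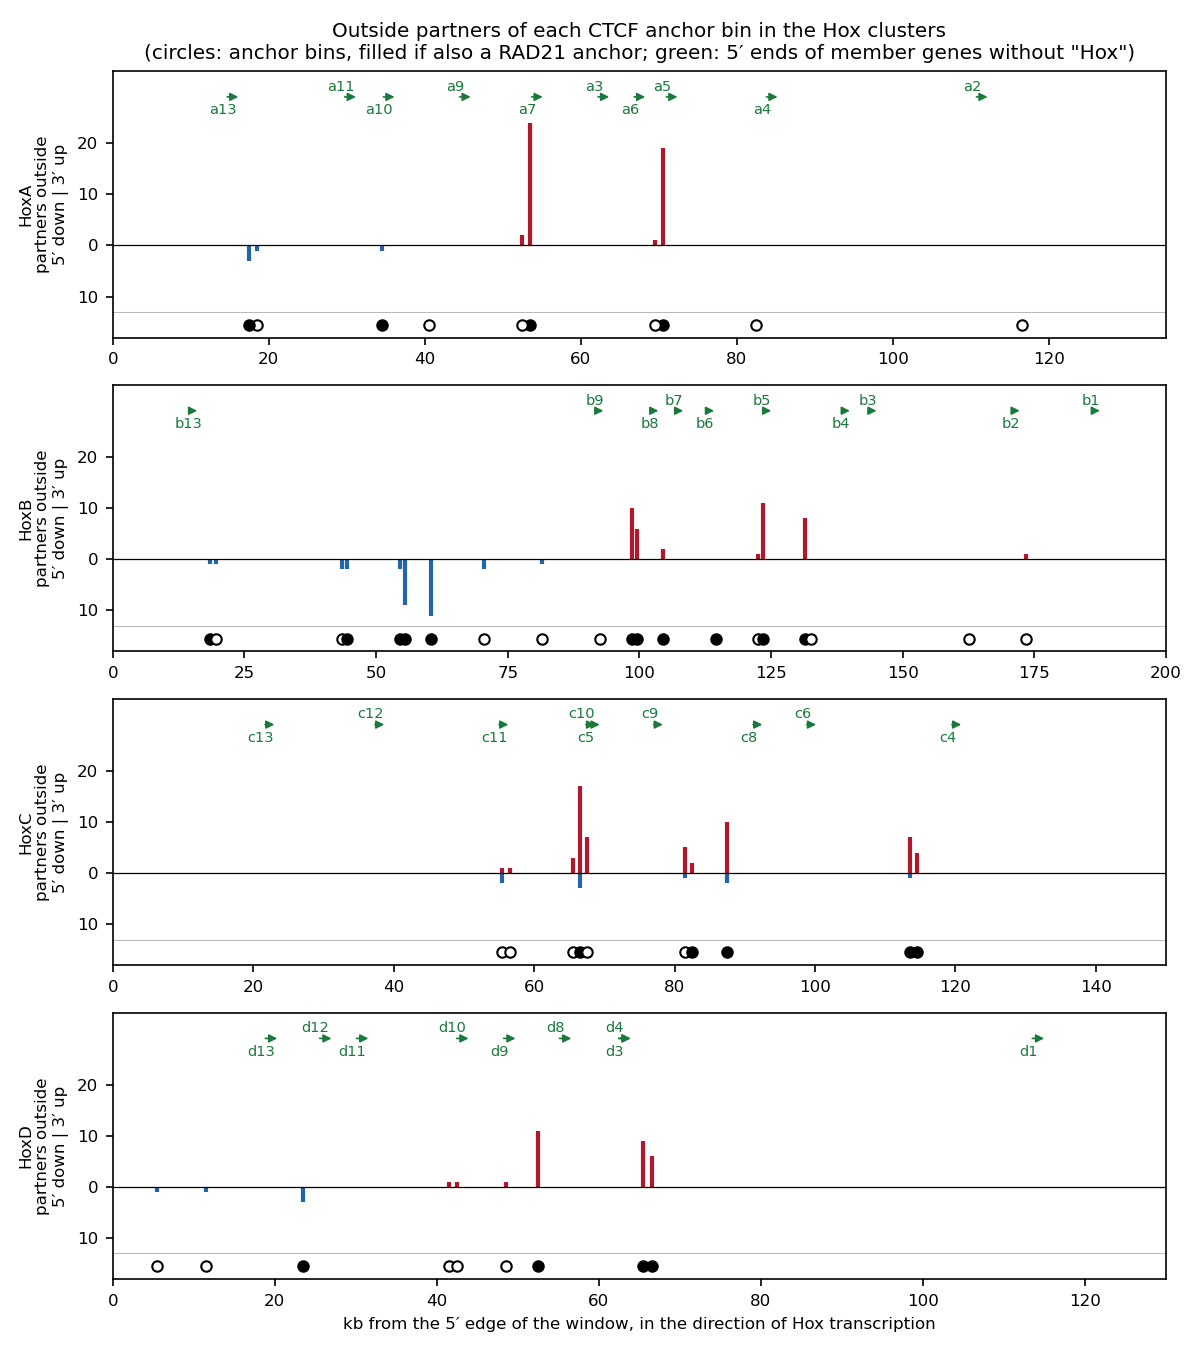
Bars give the number of CTCF partners outside the window of each anchor bin, 3′ partners upward and 5′ partners downward, against kb from the 5′ edge of the window along transcription. Circles below mark every anchor bin, filled where RAD21 was also listed, and green arrows mark the 5′ ends of the gene records (far upstream for Hoxa3, Hoxc5, Hoxd3 and Hoxd4); HoxA, HoxB and HoxD change from 5′ to 3′ partners once along the cluster, and HoxC has anchors with both.

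Over all clusters, 42 of the 49 CTCF anchors had a partner outside the window. Of these, 22 had 3′ partners only, 15 had 5′ partners only, and 5, all in HoxC, had both. In HoxA, HoxB and HoxD every anchor with 5′ partners lay nearer the 5′ end than every anchor with 3′ partners. Partners on 1 side are frequent in the whole list: of 12601 anchor bins with at least 2 partners at 100 kb or more, 71.2% had all of these on 1 side. By the same rule the Hox anchors gave 20 of 25 (80.0%), made up of 4 of 4 in HoxA, 8 of 8 in HoxB, 4 of 4 in HoxD and 4 of 9 in HoxC. The share over all clusters is near the background. Anchors with 20 or more partners were 0.511% of the whole list and 3 of 49 here, namely the Hoxa7 5′ anchor, the Hoxa5 start and the Hoxc10 start. All 3 were also among the most covered CTCF anchor bins, and partner numbers were not adjusted for coverage.

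Of the 49 CTCF anchor bins, 13 held a core match with up to 1 mismatch (26.5%), against 41.7% of all CTCF anchor bins and 2.75% of all 1 kb bins of the genome. No match says only that these letters are not in the bin. At several anchors with many partners the match pointed to the side of the partners. Others had no match, among them chr15:102987001-102988000, chr11:96240001-96241000, chr15:103013001-103014000 and chr2:74715001-74716000. The bin chr15:102967001-102968000, in an exon of Hoxc10, had a minus-strand match although all 7 of its partners were on the 3′ side. The Hoxa7 and Hoxa5 sequences printed above lie on the minus strand and point to lower coordinates, where the 3′ partners of HoxA are. In HoxB the 2 matches among the 5′-joined anchors were on the minus strand, and those between Hoxb9 and Hoxb8 and at the Hoxb5 start were on the plus strand. The Hoxc10 start and the bin between Hoxd9 and Hoxd8 had plus-strand matches, which point to the 3′ side. Of the 134 partners of the 12 anchors with a match on 1 strand, 116 lay on the side the match points to (86.6%), against 83.1% over the whole list. The share was 95.9% in HoxA, 92.7% in HoxB and 91.7% in HoxD, and 62.5% in HoxC.

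Where both bins of an interaction held a match on 1 strand, the 2 matches pointed toward each other in 42 of 64 interactions (65.6%, 53.4 to 76.1%), close to the 66.7% of the whole list. HoxD had 7 of 7, HoxB 17 of 20, HoxC 9 of 17 and HoxA 9 of 20. The 11 remaining HoxA interactions had both matches on the minus strand, among them the pair of Hoxa5 with Hoxa7 and the pair of Hoxa5 with the Skap2 exon. The 3 Hox interactions whose matches pointed away from each other were all in HoxC. These counts rest on few cluster anchors: all 20 in HoxA involve the Hoxa5 start or the Hoxa7 5′ anchor, and all 7 in HoxD the bin between Hoxd9 and Hoxd8.

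H3K27ac anchor bins were denser in the Hox windows than in the genome, and the number of pairs differed by cluster. The windows held 5.69 anchor bins per 100 kb in untreated cells and 4.88 after IAA, against 1.04 and 0.876 over the whole genome. By cluster the untreated density was 10 in HoxC, 6 in HoxB, 3.08 in HoxD and 2.96 in HoxA. The 250 kb flanks ranged from 0, as on both sides of HoxD, to 17.2 per 100 kb on the 5′ side of HoxB. The Hox bins of the untreated list had a median coverage of 959 reads, against 1483 over all its bins. In untreated cells HoxC had 14 pairs, HoxB 13, HoxA 4 and HoxD 2. Inside the windows lay 24 of the 33, and the median span of all 33 was 12 kb, against 24 kb over the whole list. In HoxC, 8 of the pairs lay within chr15:102920001-102944000, from the Hoxc13 start to past Hoxc12, with 135 contacts. In HoxB, 7 pairs lay within chr11:96250001-96272000, from Gm53 to the Hoxb9 start, with 91 contacts. These 2 stretches were picked after the values were seen. The HoxC stretch contains no CTCF anchor, and CTCF anchors of the cluster begin at Hoxc11. In the HoxB stretch, 4 of the 7 untreated pairs had a CTCF anchor between their bins, against 49% of the whole untreated list. After IAA the HoxC stretch held 6 listed pairs with 107 contacts, and the HoxB stretch 2 with 26. These are counts of listed pairs, and a pair that is not listed may still have contacts. Over the whole clusters, with each bin allowed to move by 1 bin, 5 of 13 untreated HoxB pairs and 7 of 14 HoxC pairs were found again. Whether the 2 stretches differ in their change after IAA was not tested. The strongest untreated pairs joined the Hoxc13 start with chr15:102930001-102932000 (29 contacts), the Hoxc4 start with chr15:103040001-103042000 (24 contacts) and chr15:102930001-102932000 with an exon of Hoxc12 (21 contacts). In HoxA the pair with the most contacts, 18, joined an intron of Halr1 with the start of Hotairm1, both noncoding genes at the 3′ end, and the next, with 17, joined the Hoxa9 start with an exon of Hoxa10. In HoxB the highest counts were 17, between 2 bins of Gm53, and 16, between the Gm53 start and chr11:96114001-96116000. In HoxD the 2 pairs had 8 and 10 contacts and lay at Hoxd11 to Hoxd10 and inside Hoxd3.

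Starts of 27 of the 38 members were in no H3K27ac list, and 64.2% of all protein-coding genes had none in either list. The starts of 8 were in a bin of the untreated list, as were those of 31.6% of all protein-coding genes: Hoxa9, Hoxb9, Hoxb13, Hoxc4, Hoxc10, Hoxc11, Hoxc12 and Hoxc13. After IAA there were 7, against 28.3% of all protein-coding genes: Hoxa10, Hoxb9, Hoxc4, Hoxc12, Hoxc13, Hoxd9 and Hoxd10. Hoxb9, Hoxc4, Hoxc12 and Hoxc13 were in both, as were 24.1% of all protein-coding genes. In read coverage the Hoxc13 start bin had 1779 reads untreated and 2006 after IAA, and the Hoxb9 start bin 1150 and 1558. Over the 15 Hox bins listed in both conditions the log2 ratio of coverage, IAA over untreated, had a median of 0.19 and ranged from 0.05 to 0.46, and over all 16828 such bins the median was 0.20. The 2 medians were close.

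After IAA the Hox clusters had 21 H3K27ac pairs, 5 in HoxA, 7 in HoxB, 7 in HoxC and 2 in HoxD. Of these 21, 8 were also in the untreated list and 13 were not. Over the whole list after IAA, 15551 of 28210 pairs were also in the untreated list. The pairs with most contacts after IAA were in HoxC, with 31 at the Hoxc4 start and 23 at each of 2 Hoxc13 bins. HoxB followed with 15 within Gm53, HoxA with 11 within Hoxa10 and 11 between Hoxa11os and Hoxa13, and HoxD with 10 between the Hoxd10 and Hoxd9 starts. The 4 pairs that HoxA gained in the list lay inside the cluster and had 10 or 11 contacts. Of the 33 untreated pairs, 8 were called again at the same bin pair (24.2%, 12.8 to 41.0%), against 42.9% over the whole list. These were 1 of 4 in HoxA, 2 of 13 in HoxB, 5 of 14 in HoxC and 0 of 2 in HoxD. A pair that is not called again may still have contacts below the threshold. Pairs with few contacts were called again less often throughout the list, in 14.7% of those with 6 to 9 contacts and 82.9% of those with 25 or more, and the median Hox pair had 12 contacts. Weighted to the contact counts of the Hox pairs, a comparison added after the data were seen, the list's share was 35.0%, within the interval of the Hox share. With each bin allowed to move by 1 bin, 14 of the 33 Hox pairs were found again (42.4%), against 65.7% of the list. The 65.7% was not weighted to the contact counts of the Hox pairs, so these 2 shares are not compared at like counts.

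The 8 pairs called in both lists had 138 contacts untreated and 140 after IAA. Scaled to the contacts of all shared pairs, the log2 ratio was 0.05 (95% exact interval −0.30 to 0.40). In HoxC, 97 and 105 contacts gave 0.14 (−0.27 to 0.56), in HoxB 29 and 26 gave −0.13 (−0.95 to 0.69), and the HoxA pair gave −0.39 (−1.81 to 0.98). By the exact binomial test, which compares 2 pools of libraries and not the conditions, 0 of 8 pairs had an adjusted p under 0.05 and 0 an unadjusted p under 0.05, and 0.135% of all 15551 shared pairs passed the former. The intervals leave room for changes in either direction. Only pairs that passed the calling threshold in both lists enter the ratio and the test. The 25 untreated pairs that were not called again are left out, whatever their contacts after IAA. These values therefore describe the pairs that stayed listed and not all H3K27ac pairs of the clusters.

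The single pairs varied around this. The Hoxc13 intron and chr15:102930001-102932000 had 13 contacts untreated and 23 after IAA, a log2 ratio of 0.85 (−0.19 to 1.96), the largest positive value. The Hoxc4 start and chr15:103040001-103042000 had 24 and 31 (0.40), and the Hoxc12 start and chr15:102942001-102944000 13 and 14 (0.14). On the other side, the Skap2 start and the Hotairm1 start had 12 and 9 (−0.39), the Hoxc13 start and chr15:102932001-102934000 18 and 14 (−0.33), and the Hoxc13 start and chr15:102930001-102932000 29 and 23 (−0.31). The last value and the first belong to neighbouring bins of Hoxc13 that share a partner and have ratios of opposite sign. The 2 shared HoxB pairs, of Gm53 bins with the Hoxb9 start and with another Gm53 start, had 12 and 11 and 17 and 15 contacts.

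**Figure D4:**
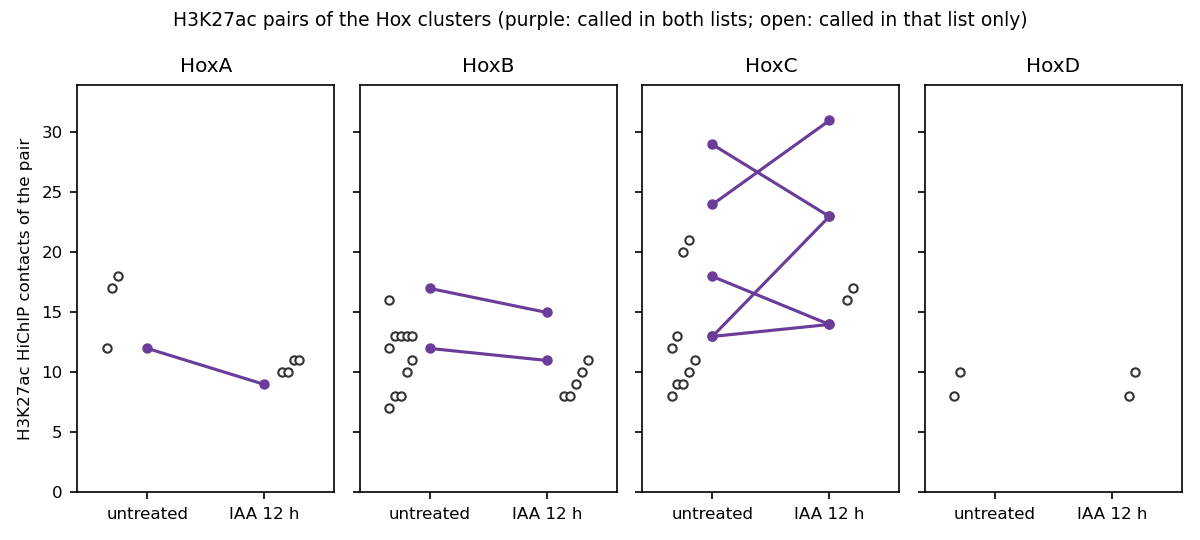
H3K27ac contacts of each pair of the 4 clusters, untreated and after 12 h of IAA. Purple points joined by a line are the 8 pairs called in both lists, with 138 and 140 contacts in all; open circles are pairs called in 1 list only, whose contacts in the other list are unknown.

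Few H3K27ac pairs coincided with CTCF interactions, in the Hox clusters as in the whole list. Of the 33 untreated pairs, 3 lay on a CTCF bin pair, and 6.23% of the whole list did, so the Hox share is near the background. These were the HoxB pair of chr11:96234001-96236000 with chr11:96092001-96094000 (7 contacts) and the HoxC pairs of chr15:103176001-103178000 with the Hoxc10 start (8 contacts) and with chr15:102986001-102988000 (10 contacts). They are the 2 kb counterparts of 3 of the strongest CTCF interactions described above. None of the 3 was called after IAA, and 32.6% of all untreated pairs on a CTCF bin pair were called again. At 3 pairs of 7 to 10 contacts, this count says little. After IAA 1 pair, within Hoxa10, lay on a CTCF bin pair, with 11 contacts. At least 1 CTCF anchor lay between the bins in 12 of 33 untreated pairs and 9 of 21 pairs after IAA, against 49% and 48.3% of the whole lists.

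Outside the windows, H3K27ac partners of HoxB lay on the 5′ side, although its CTCF partners lay on both. All 5 outside pairs of untreated HoxB and all 3 after IAA went to the 5′ side, where the flank of HoxB held 43 H3K27ac anchor bins in each list and the 3′ flank 0. The Gm53 start bin (chr11:96250001-96252000), with 5167 reads untreated and 5399 after IAA the most covered H3K27ac bin of the clusters, was in 2 of these 5 pairs and in 2 of the 3. HoxA pairs to the outside went to the 3′ side, to the starts or introns of Skap2 and Halr1, and HoxD had none. HoxC had 2 outside pairs in untreated cells, both on the 3′ side with 18 contacts in all, and 0 after IAA. Of the 98 outside partner bins of CTCF interactions, 17 lay in a bin of the untreated H3K27ac list (17.3%), and 24.6% of all CTCF anchor bins did. By cluster these were 8 of 20 for HoxC, 5 of 32 for HoxA, 4 of 31 for HoxB and 0 of 15 for HoxD.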

How the data were processed

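MNase HiChIP was deposited as 4 lists of called interactions, each pooled over the libraries of 1 group. Per the file headers, each row of the deposited lists gives 2 bins (1 kb for CTCF and RAD21, 2 kb for H3K27ac), the contact count, read counts per bin (coverage), a peak flag, a model's expected contacts as a signal, the model probability as a fraction, and p- and q-values. The deposited q-values are all under 0.05. The submitters' processing notes name Trim Galore, BWA, MACS2, deepTools and mm10. The names of the deposited lists point to FitHiC calls at a q limit of 0.05. Versions and settings are not given in the sources used here.

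Rows were taken by the windows with Python 3.11.15, pandas 2.3.3 and SciPy 1.17.1, an overlap of 1 base being enough. Bins were annotated with the basic set of GENCODE M21 on GRCm38, in which a gene record can be longer than its listed transcripts, on which 0 of 20 chromosomes had an anchor beyond its end. Shares carry 95% Wilson intervals. H3K27ac counts of the 15551 pairs in both lists were compared by an exact two-sided binomial test, scaled to the summed contacts of those pairs, with Benjamini-Hochberg adjustment over all of them. Tested on simulated data for these 15551 pairs, the test recovered 1.5% of 2-fold, 71% of 4-fold and 97.5% of 8-fold changes. Depth is known as the contacts in the authors' model, 12551236 for untreated H3K27ac and 14629323 after IAA, with a median of 13 to 14 contacts per listed pair.

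Named were all 38 members and the 3 anchors with most partners per cluster. The interactions with most contacts per cluster and list were named too (3 for CTCF and RAD21, fewer where H3K27ac counts tie). Of the shared H3K27ac pairs with 20 or more contacts summed over both lists, those with the 3 largest and 3 smallest ratios were named. Members, windows and lists were chosen with earlier results of these data known. Alternatives covered the q limit, the contact minimum, the windows, the bin tolerance, the scaling and the mismatches.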

Additional observations from a re-analysis of the deposited data

How the results depend on the processing

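Of 44 alternative values of the main results, 41 stayed within the reported interval or within 1.5 times the reported count. Allowing each anchor to move by 1 bin raised the share of H3K27ac pairs called again from 24.2 to 42.4% and the share of CTCF interactions in the RAD21 list from 35.9 to 55.3%. Counting only partners 100 kb or more outside the window, an alternative chosen after seeing the data, raised the 3′ share of CTCF interactions from 77.4 to 86.7% and that of HoxB to 84.1%. The log2 ratio of shared H3K27ac pairs was 0.05 as reported, −0.20 when scaled by the model contacts, −0.01 when divided by coverage and 0.17 at a q of 0.01. For HoxC the 3′ share was 93.0% at a q of 0.01 and 93.4% by contacts. RAD21 anchors in the flanks numbered 2.65 per 100 kb, and 1.63 in flanks of 100 kb. With no mismatch allowed, no Hox interaction had a motif match in both bins, so that alternative gave no value. With up to 2 mismatches, the matches pointed toward each other in 64 of the 108 interactions with a match on 1 strand in both bins (59.3%).

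No paired analysis was possible because each list merges the libraries of its group. For the same reason no replicate could be left out. The counts limit the H3K27ac comparison: with 8 shared pairs of 9 to 31 contacts, few changes of 2-fold would be called, as in the simulated data.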
